A study of Mus musculus with 4 samples.

Results

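The mononuclear immune cells were the cells that the authors labelled MNC in the frontal cortex and in the midbrain, 192 of 21644 cells in all. Of the frontal cortex cells 22 came from the transgenic and 46 from the wildtype library, and of the midbrain cells 33 and 91. They formed 1 cluster of the authors in each region, numbered 25 in frontal cortex and 27 in midbrain, and neither cluster held a cell with another label. The label gives no finer type, so the genes of T cells, natural killer (NK) cells, B cells, monocytes and neutrophils were counted in each cell.

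The study profiled single cells from the brains of transgenic mice, whose strain label is Hua-Syn(A53T), and of wildtype littermates on the C57BL/6 strain, all aged 6 to 9 months. The promoter of the transgene is not given in the sources used here, so which cells carry its RNA is not known from the labels. Each combination of region and genotype was 1 library made with 10x Genomics 3' chemistry after a dissociation meant for glia and vessels. By the design text a group holds 3 mice, and by the labels the same mice gave both regions, although the labels number the mice 3 in the cortical samples and 0 in the midbrain ones. No file ties a cell to a mouse, so every group was 1 sample, no test was possible, and the 95% intervals below cover counting error only.

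T cells recognise peptides through a receptor of paired chains that is held at the surface with the CD3 subunits, and they divide into CD8 cells, which can kill, and CD4 cells, which direct other cells. NK cells share the killing machinery of CD8 cells without that receptor, B cells carry immunoglobulin with the CD79 subunits, and monocytes are blood phagocytes that enter tissues. In a healthy adult brain such cells are few and lie mainly in vessels, meninges, perivascular spaces and choroid plexus.

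Cd3g, the CD3 gamma subunit and 1 of the 5 marker genes of these cells, lies in a cluster with the genes of the other CD3 chains. In GRCm38, the assembly that mm10 names, Cd3g spans chr9:44969572-44980431 on the minus strand and Cd3d starts 1355 bases away on the plus strand. Together with Cd3e, the 3 genes lie within 40.1 kb. The 130 bases before the outermost annotated start of each are printed here from RefSeq (GRCm38.p6), since CD3 genes defined the largest class of these cells, followed by those of Cd79a for B cells and S100a9 for neutrophils. The windows are chr9:44980432-44980561 (minus strand), chr9:44981656-44981785 (plus), chr9:45009628-45009757 (minus), chr7:24897251-24897380 (plus) and chr3:90695722-90695851 (minus). Capitals mark GGAA on either strand, the core that ETS factors read.
Cd3g: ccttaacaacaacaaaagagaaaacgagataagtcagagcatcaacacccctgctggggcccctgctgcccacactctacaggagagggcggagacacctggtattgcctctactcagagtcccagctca
Cd3d: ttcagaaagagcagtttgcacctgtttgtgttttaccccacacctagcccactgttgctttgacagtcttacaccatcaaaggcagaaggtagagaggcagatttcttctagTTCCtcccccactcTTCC
Cd3e: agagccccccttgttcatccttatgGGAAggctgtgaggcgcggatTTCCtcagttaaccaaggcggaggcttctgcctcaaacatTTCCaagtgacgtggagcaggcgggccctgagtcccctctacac
Cd79a: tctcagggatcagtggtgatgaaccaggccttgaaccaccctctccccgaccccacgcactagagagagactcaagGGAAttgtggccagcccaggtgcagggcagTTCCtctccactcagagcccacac
S100a9: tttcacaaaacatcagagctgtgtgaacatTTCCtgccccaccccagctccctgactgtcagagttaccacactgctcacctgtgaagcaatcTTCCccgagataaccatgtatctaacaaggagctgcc
Cd3g had 0 such matches, Cd3d 2, Cd3e 3, Cd79a 2 and S100a9 2. The core is short, and 76.2% of 32851 windows of the same length before RefSeq starts held at least 1, with a median of 1.

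MNC cells made up 0.583% of the cells of the transgenic frontal cortex library (exact Clopper-Pearson interval 0.366 to 0.881) and 0.737% of the wildtype one (0.540 to 0.982). In midbrain the shares were 0.826% (0.569 to 1.16) in the transgenic and 1.19% (0.961 to 1.46) in the wildtype library. The genotype difference had an interval that held 0 in both regions, at -0.155 points (Newcombe interval -0.469 to 0.196) in frontal cortex and -0.366 points (-0.725 to 0.032) in midbrain. Between regions, the wildtype midbrain share was 0.455 points higher (0.126 to 0.781), and the transgenic one 0.243 points higher with an interval of -0.138 to 0.629. The median MNC cell held 5355 to 6265 unique molecular identifiers (UMIs, counted RNA molecules) and 1908 to 2092 genes in the 4 libraries, against a median of 6907 to 8213.5 UMIs in all other cells. The median mitochondrial share was 3.18% to 3.91%. No MNC barcode was found in another library.

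The MNC label follows the authors' clusters of these same cells, so levels of its marker genes describe it and do not test it. Cd3g gave 128 UMIs in 17 transgenic and 163 in 24 wildtype frontal cortex cells, and 116 in 17 and 281 in 45 midbrain cells. In CPM (counts per 1000000 UMIs of the summed cells, here all MNC cells of a library, below also T-class cells) that was 872, 556, 521 and 411, against 0 to 0.15 CPM in all other cells, of which at most 0.048% held a Cd3g UMI. Cd3g was thus all but absent outside MNC cells. Nkg7, a membrane protein of cytotoxic granules (chr7:43437073-43438249), stood at 668 and 716 CPM in transgenic and wildtype frontal cortex and at 332 and 496 CPM in midbrain. Ms4a4b, a membrane protein of T and NK cells (chr19:11443553-11467055), stood at 756, 685, 485 and 520 CPM in the same order. Both genes were thus found in MNC cells of all 4 libraries.

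Igkc, the constant region of the immunoglobulin kappa chain (chr6:70726435-70726966), separated the regions. It stood at 1410 CPM in transgenic and 2625 CPM in wildtype frontal cortex, but at 265 and 160 CPM in midbrain. In frontal cortex MNC cells held 99.0% and 97.8% of all Igkc UMIs of their library. In midbrain they held 21.3% and 47.6%, and 5.05% of the other transgenic and 1.21% of the other wildtype cells had an Igkc UMI, against 0.053% and 0.23% in frontal cortex. Igkc UMIs outside MNC cells were thus a feature of the midbrain libraries, and their part in single MNC cells with 1 Igkc UMI was not tested. Ly6c2, the marker given for monocytes (chr15:75108158-75111970), stood at 259 and 668 CPM in frontal cortex and 489 and 473 CPM in midbrain, against at most 0.69 CPM in other cells.

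To see which cells carried these genes, each MNC cell was put in the class whose marker list gave the most UMIs, with at least 2 UMIs required. The lists were the 7 genes of the T cell receptor complex, 11 NK genes, 11 B cell genes, 10 genes of classical monocytes and 12 of neutrophils. A class is a range of counts and not a proven type, and 104 of the 192 cells reached 2 UMIs on at least 2 of the 5 lists. T-class cells were nevertheless clear of the threshold, with 4 to 81 T list UMIs each and a median of 29. No doublet caller was run, and whether the authors removed doublets is not given in the sources used here.

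T-class cells were the largest class everywhere. They were 17 of 22 transgenic (77.3%) and 21 of 46 wildtype cells (45.7%) in frontal cortex, and 21 of 33 (63.6%) and 46 of 91 (50.5%) in midbrain. The transgenic share was higher by 31.6 points in frontal cortex (6.53 to 50.1), and by 13.1 points in midbrain with an interval that held 0 (-6.67 to 30.5). B-class cells numbered 4 transgenic and 16 wildtype in frontal cortex (18.2% and 34.8%), and 2 and 6 for midbrain (6.06% and 6.59%). Between the wildtype libraries the B share was lower in midbrain (difference -28.2 points, interval -43.1 to -14.2). Between the transgenic ones the difference was -12.1 points (-32.9 to 5.25).

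Monocyte-class cells numbered 1 transgenic and 2 wildtype in frontal cortex (4.55% and 4.35%), and 5 and 20 for midbrain (15.2% and 22.0%). In wildtype mice this share was 17.6 points higher in midbrain (5.11 to 27.7). That difference depended on the list and the cells: with Ly6c2, Ccr2, Plac8 and Fn1 out of the list, a choice made after seeing the data, it was 7.72 points with an interval that held 0 (-2.53 to 15.8). Without the cells with at least 4 microglial or endothelial UMIs it was 9.95 points (-6.50 to 21.5). Neutrophil-class cells numbered 0 and 1 in frontal cortex, against 4 and 9 for midbrain (12.1% and 9.89%), although neutrophils are not mononuclear cells by their usual definition. NK-class cells were found in the wildtype libraries, 5 in each region (10.9% and 5.49%). The transgenic libraries held 0 of 22 and 0 of 33, which by the limit of 3 cells of the total allows shares of up to 13.6% and 9.09% (15.4% and 10.6% by the exact Clopper-Pearson interval), so an absence of NK cells cannot be read from these counts. Another 3 cells tied between lists, and 4 reached no list.

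**Figure D1:**
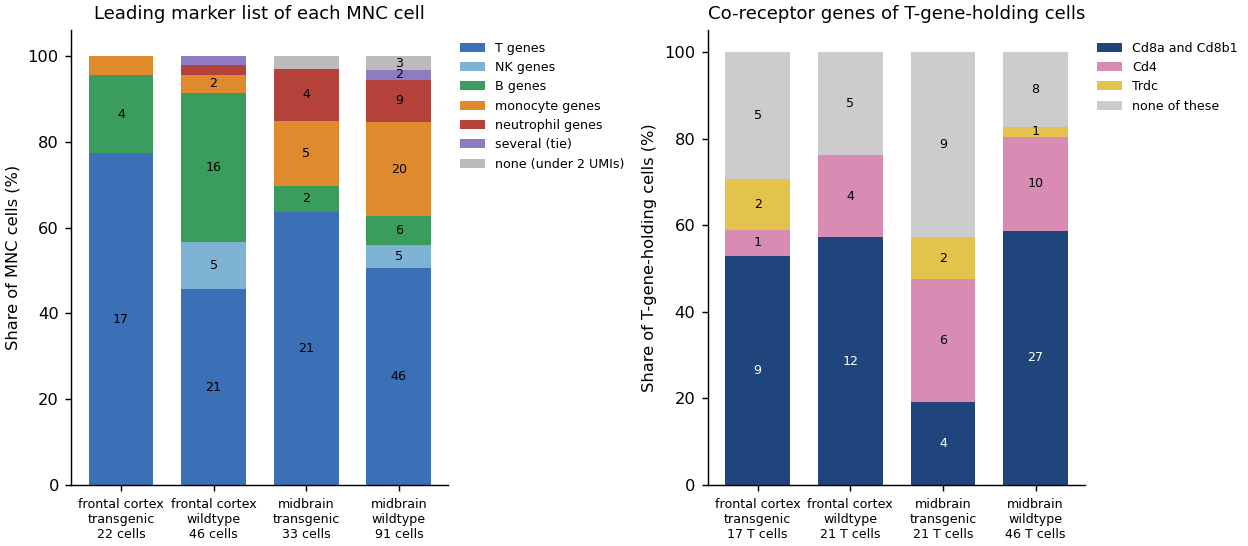
Left, the percentage of MNC cells of each library by the marker list with most UMIs, with the number of cells printed in each segment; right, the percentage of T-class cells of each library that held CD8, Cd4, Trdc or none of these UMIs. The T segment is the widest in all 4 bars, B cells lie mainly in frontal cortex, and 4 of 21 transgenic midbrain T-class cells held CD8 UMIs against 27 of 46 wildtype ones.

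The marker genes did not divide evenly by class. Cd3g is on the T list, so its place in T-class cells (96.4% of its MNC UMIs) follows from the class rule, as does that of other list genes in their own class. Ms4a4b, Nkg7 and Igkc are on none of the 5 lists. T-class cells held 90.6% of the MNC UMIs of Ms4a4b and 81.7% of Nkg7, of which NK-class cells held another 13.2%. Igkc was in B-class cells to 99.7%. Ly6c2, although on the monocyte list, lay mostly in T-class cells, with 65.5% of its UMIs, while monocyte-class cells held 15.9%. Its UMIs were thus not confined to the class it was chosen to mark.

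**Figure D2:**
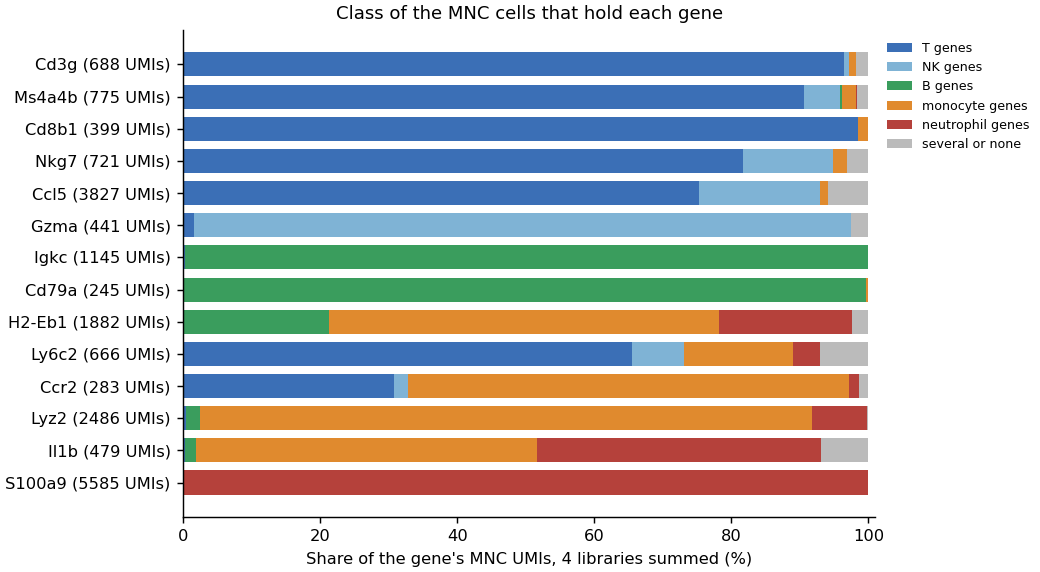
Share (percent) of the MNC UMIs of 14 genes by the class of the cell that held them, summed over the 4 libraries. Ms4a4b is almost wholly T-class and Igkc B-class, and T-class cells hold 65.5% of Ly6c2; Cd3g, Gzma, Cd79a, Ly6c2, Ccr2 and S100a9 are on lists that set the classes.

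Ccr2, the receptor for monocyte chemokines and a gene of the monocyte list, lay in different classes in the 2 regions. In frontal cortex T-class cells held 89.4% of its MNC UMIs, and in midbrain monocyte-class cells held 76.7%. Lyz2, the lysozyme of phagocytes, was in monocyte-class cells to 89.3%. H2-Eb1, an MHC class II chain by which cells present peptides to CD4 T cells, was in B-class cells to 100% in frontal cortex. In wildtype midbrain 1065 of its 1541 UMIs lay in 10 monocyte-class cells and 64 in 5 B-class cells. In transgenic midbrain 25 of its 32 UMIs lay in 2 B-class cells and 7 in 1 monocyte-class cell. Monocyte-class cells thus held most H2-Eb1 UMIs in wildtype midbrain, and B-class cells in the other libraries.

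Among the T-class cells the 7 receptor genes, which chose these cells, summed to 4315 CPM in transgenic and 4380 in wildtype frontal cortex, and to 4107 and 4231 CPM in midbrain. All 105 cells held at least 1 UMI of a beta chain constant region, Trbc1 and Trbc2 together in 56, Trbc2 alone in 48 and Trbc1 alone in 1. Genes of the variable regions were not analysed here, so clones cannot be told apart. Lck, the kinase that starts receptor signalling, and Cd28, a co-stimulatory receptor, were found in 12 and 13 of the 17 transgenic frontal cortex cells and in 37 of the 46 wildtype midbrain cells each.

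CD8 was the co-receptor found most often in 3 of the 4 libraries. At least 2 UMIs of Cd8a and Cd8b1, the genes of its 2 chains, were held by 9 of 17 transgenic and 12 of 21 wildtype frontal cortex T-class cells (52.9% and 57.1%). In midbrain they were held by 4 of 21 transgenic and 27 of 46 wildtype cells (19.0% and 58.7%). The transgenic midbrain share was below the wildtype one (difference -39.6 points, interval -56.9 to -14.2) and below that of transgenic frontal cortex (difference -33.9 points, interval -57.7 to -3.53). Few cells lay near the threshold, since 3 of 105 held 1 to 3 CD8 UMIs. With every cell thinned to 2000 UMIs, which left out 3 transgenic midbrain cells and 1 transgenic frontal cortex cell, the midbrain shares were 16.7% and 41.3%, and the interval of their difference held 0 (-24.6 points, -42.6 to 1.40).

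Cd4 was sparse. It gave 2, 6, 7 and 18 UMIs in 1, 4, 6 and 10 T-class cells of transgenic and wildtype frontal cortex and transgenic and wildtype midbrain. Cd4 was thus held by 6 of 21 transgenic and 10 of 46 wildtype midbrain cells, a difference of 6.83 points (-13.4 to 30.2). None of the 52 CD8 cells held a Cd4 UMI. Trdc, the constant region of the delta chain of gamma-delta T cells, reached 2 UMIs in 5 T-class cells, 2 of them in each transgenic library and 1 in wildtype midbrain, and none of these held 2 CD8 UMIs. Up to 0.91% of other cells held a Trdc UMI. The remaining 27 T-class cells, 9 of them in transgenic midbrain, held no Cd4 UMI and fewer than 2 UMIs of CD8 and of Trdc.

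Cytotoxic genes lay mainly in the cells with CD8. At least 2 UMIs of Nkg7 were found in 48 of 52 CD8 cells and in 20 of the other 53 T-class cells, and of Ccl5, a chemokine stored in such granules, in 47 of 52 and 21 of 53. Ly6c2 reached 2 UMIs in 26 of 52 CD8 cells and in 9 of the other 53. Among the 28 monocyte-class cells it did so in 7. Ly6C is known also as a surface antigen of memory CD8 cells, and 35 T-class cells in all reached 2 Ly6c2 UMIs.

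**Figure D3:**
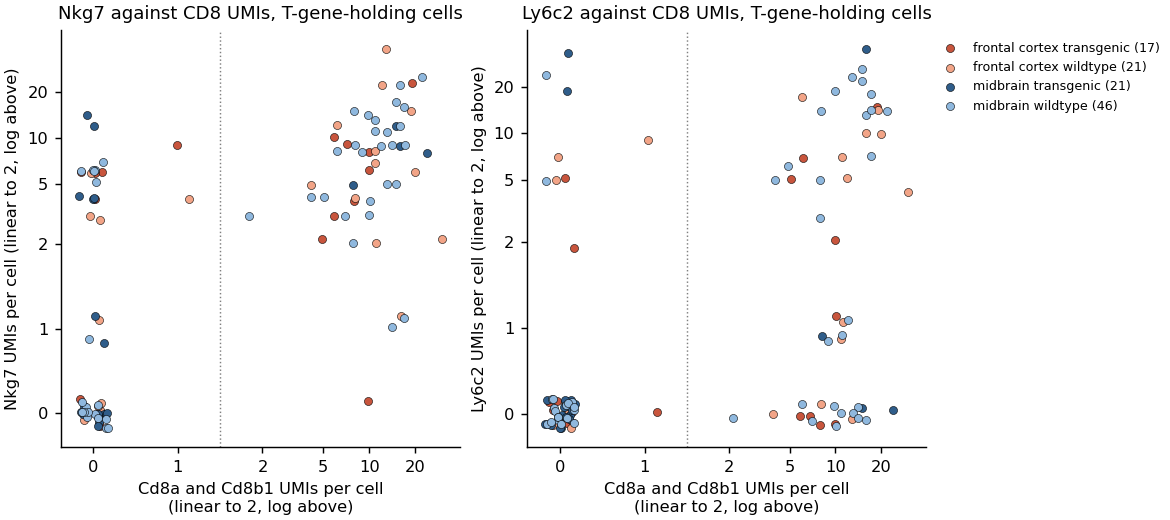
Each point is 1 T-class cell of the 4 libraries, with its CD8 UMIs (Cd8a and Cd8b1) on the horizontal axis and its UMIs of Nkg7 (left) or Ly6c2 (right) on the vertical axis. Points with CD8 UMIs reach higher on both axes: 48 of 52 CD8 cells held 2 or more Nkg7 UMIs and 26 of 52 held 2 or more Ly6c2 UMIs.

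Of the genes of resident memory cells, some were found in T-class cells of every library. Cxcr6, a chemokine receptor of such cells, gave 74, 53, 45 and 76 UMIs in 13, 11, 13 and 28 T-class cells of the 4 libraries in the order used above. Itgae, the integrin of resident memory cells in epithelia, gave 3 UMIs at most. Ifng, the interferon gamma gene, was found in 11, 14, 14 and 22 T-class cells. Cxcr6 and Ifng were thus each held by T-class cells of all 4 libraries, whereas Itgae was close to 0.

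NK genes came from few cells. The 10 NK-class cells, all wildtype, held Nkg7 without exception, and 7 held at least 2 UMIs of Gzma, a granzyme of NK cells. Gzma gave 92 UMIs in 4 frontal cortex and 349 in 6 midbrain wildtype cells, and 0 in both transgenic libraries. Ncr1, the receptor NKp46, gave 21 UMIs in 5 and 24 in 7 wildtype cells and 0 in both transgenic ones. In frontal cortex the Gzma level of the transgenic library was at least 15.3-fold lower and in midbrain at least 37.9-fold lower, taking a floor of 3 UMIs over the group. These ratios rest on 4 and 6 cells, and 0 of 22 or 33 cells does not show that NK cells were missing. Of the 10 cells, 5 also held at least 2 UMIs of T cell receptor genes. Prf1, the perforin that opens target cells, gave 0, 28, 8 and 60 UMIs and was found in T-class cells of 3 libraries.

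The 28 B-class cells mostly held immunoglobulin and MHC class II genes, and their stage of maturity was not tested. At least 5 Igkc UMIs were held by 27 of them and at least 10 MHC class II UMIs by 27, and none held a T cell receptor UMI. Kappa outweighed lambda (Iglc1, Iglc2 and Iglc3) in 26 of 28, although 25 of 28 also held at least 5 lambda UMIs. A single B cell normally makes 1 light chain, and how lambda UMIs came to lie in kappa cells was not tested. Ighm gave 76, 244, 51 and 87 UMIs and Ighd, its partner on naive B cells, 21, 75, 8 and 9. Jchain, a plasma cell gene, gave 1 UMI in all 192 cells.

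The libraries differed in Ly6d, a surface protein of B lineage cells. It gave 98 UMIs in 16 wildtype frontal cortex cells and 16 in 5 wildtype midbrain cells, and 0 in both transgenic libraries. Vpreb3, a chaperone of the immunoglobulin chains that is high in immature B cells, gave 39 UMIs in 5 wildtype frontal cortex cells, 32 of them in 1 cell, and at most 1 UMI elsewhere. With 4 transgenic B-class cells in frontal cortex and 2 in midbrain, these differences rest on very few cells. In 1 wildtype midbrain B-class cell there were 144 endothelial UMIs and no Igkc.

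Phagocyte genes lay mainly in midbrain. Lyz2 gave 2 and 15 UMIs in transgenic and wildtype frontal cortex but 905 in 7 cells and 1564 in 31 cells in midbrain. At least 10 Lyz2 UMIs were held by 5 of 5 transgenic and 16 of 20 wildtype monocyte-class cells of midbrain. The frontal cortex cells of this class had other traits. The transgenic one held 16 T list UMIs, 5 CD8 UMIs and 182 endothelial UMIs with 0 Lyz2 UMIs. Of the 2 wildtype ones, 1 held 41 T list and 48 Ly6c2 UMIs, and the other 13 Lyz2 UMIs beside 143 endothelial UMIs. None of these 3 cells therefore held monocyte genes free of T cell or endothelial ones. In midbrain Hp, haptoglobin, gave 72 and 99 UMIs and Chil3, a chitinase-like protein of young monocytes, 25 UMIs in 4 wildtype cells, 21 of them in 1 cell.

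Some monocyte-class cells held genes of dendritic cells, which take up and present antigen. At least 2 UMIs of Flt3, Cd209a, Xcr1 and Clec9a were found in 7 of the 20 wildtype midbrain cells and in none of the other 8. At least 50 MHC class II UMIs were found in 10 cells, 9 of them wildtype midbrain, with up to 1065 in a single cell. Another 2 wildtype midbrain cells counted as neutrophil-class held 780 and 805 MHC class II UMIs with 11 and 9 neutrophil list UMIs, and the list call of these 2 goes against their leading genes. H2-Eb1 gave 66, 243, 32 and 1541 UMIs, so the wildtype midbrain library held most of it.

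S100a8 and S100a9, the calprotectin subunits that fill neutrophils, reached 50 UMIs together in 3 transgenic and 6 wildtype midbrain cells. S100a9 gave 0 and 0 UMIs in frontal cortex and 791 and 4794 in midbrain, while other cells of the 4 libraries stood at 1.6 CPM or less. Granule genes of young neutrophils, Camp among them with 497 UMIs, were held by 2 wildtype midbrain cells. A single cell held 5596 of the 10456 neutrophil list UMIs of the wildtype midbrain (53.5%), together with 256 endothelial UMIs.

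Ratios of the 2 genotypes were then taken on UMIs summed over all MNC cells. A gene counted as higher or lower at 1.5 times (log2 ratio of 0.58 or more in size) with at least 50 CPM in 1 library and 30 UMIs over both. In frontal cortex 230 of 2015 genes (11.4%) were higher and 330 (16.4%) lower in the transgenic library. In midbrain 524 of 3221 (16.3%) were higher and 507 (15.7%) lower. These shares are the background for all genes, and with 1 library a group they cannot be told apart from differences between libraries. For members of gene lists, a gene with at least 20 UMIs counted at 1.2 times with an interval that left out 0.

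In frontal cortex genes of B and NK cells were lower in the transgenic library. Of 9 B cell list genes 6 were lower and 0 higher (median log2 ratio -0.82), against 6.01% of 3027 genes lower and 4.56% higher. Of 9 MHC class II genes 7 were lower and 1 higher (median -1.0), and of 5 NK genes 5 were lower (median -2.55). Named genes on the lower side included Pou2af1, a B cell co-activator (2 UMIs against 31, log2 ratio -2.96, interval -6.06 to -0.98). Tyrobp and Fcer1g, signalling adaptors of NK and myeloid cells, gave 2 against 78 UMIs (-4.29, -7.36 to -2.39) and 4 against 97 (-3.60, -5.51 to -2.20). Iglc3 and Ly6d gave 0 UMIs against 73 and 98. Beside these ratios, the share of B-class cells differed by -16.6 points between the genotypes (-34.7 to 7.06), that of NK-class cells by -10.9 (-23.0 to 5.21) and that of monocyte-class cells by 0.20 (-10.7 to 17.7), all with intervals that held 0. The part of these shares in the ratios was not tested.

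In midbrain 9 of 10 MHC class II genes were lower and 0 higher in the transgenic library (median -2.18), against 7.17% of 5465 genes lower and 7.72% higher. H2-Eb1 was at 144 CPM in transgenic and 2256 CPM in wildtype cells (log2 ratio -3.97, -4.53 to -3.47), with its UMIs in 3 and 21 cells. Of 6 NK genes 6 were lower (median -1.27). Of 12 neutrophil genes 8 were lower and 3 higher, and Cxcr2, the chemokine receptor of neutrophils, was among the higher ones (27 UMIs in 4 cells against 13 in 6, log2 ratio 2.67, 1.67 to 3.75). These counts rest on few cells, since 1 cell held 51.5% of the 1517 transgenic neutrophil list UMIs and 1 cell 53.5% of the 10456 wildtype ones. Neutrophil-class cells were 12.1% of transgenic and 9.89% of wildtype midbrain MNC cells. Ccl3, a chemokine of activated leukocytes, gave 257 UMIs in 9 transgenic cells, 171 of them in 1 cell, against 73 in 26 wildtype cells (3.43, 3.05 to 3.83; 2.29 without the cell with most UMIs in each library).

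Endothelial list RNA differed between libraries. It stood at 314 CPM in transgenic and 1825 CPM in wildtype MNC cells of midbrain, and at 1553 and 1633 CPM in frontal cortex. In T-class cells alone it was lower in the transgenic library of both regions, at 293 and 796 CPM in midbrain and 320 and 1736 CPM in frontal cortex. Among all MNC cells, the cell with most of these UMIs held 10% and 20.5% of them in midbrain and 79.8% and 44.5% in frontal cortex. Cxcl12, a chemokine of vessels and stroma, gave 1 UMI against 154 in midbrain (log2 ratio -5.65, -10.96 to -3.15), and Ramp2, an endothelial receptor protein, 1 against 41 (-3.74, -9.08 to -1.18). Without the cells that held at least 4 microglial or endothelial UMIs both ratios turned, to 0.82 and 1.14. That step left out 10 of 33 transgenic and 33 of 91 wildtype midbrain cells, and 9 of 22 and 20 of 46 frontal cortex cells.

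Because class shares differed, the ratios were repeated within T-class cells. In frontal cortex (17 transgenic and 21 wildtype cells) 149 of 1096 genes (13.6%) were 1.5 times higher and 130 (11.9%) lower. The receptor complex had a median log2 ratio of 0.01 with 0 of 7 genes called, the cytotoxic list -0.01 with 0 of 7 and MHC class I 0.01 with 0 of 10. By the list rule 6.33% of 1753 genes were higher and 5.08% lower. No gene of these 3 lists was thus called. The receptor genes also set the T class, so their levels within it are not independent of that choice. As a description, Cd3g stood at 1121 and 896 CPM (0.32, -0.03 to 0.68).

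Resident memory genes stood apart from that, with 4 of 6 higher and 0 lower (median 0.69). Cxcr6 was at 658 CPM in transgenic and 327 CPM in wildtype T-class cells (log2 ratio 1.01, 0.48 to 1.54). Bhlhe40, a transcription factor of resident memory cells, gave 34 UMIs in 9 cells against 8 in 5 (2.61, 1.48 to 3.94). Cd69, which keeps cells from leaving tissue, was at 730 and 432 CPM (0.75, 0.28 to 1.24). Rgs1 was at 712 and 463 CPM (0.62, 0.15 to 1.09), but at 0.04 without the cell with most UMIs in each library. Without the cells with microglial or endothelial UMIs, 10 transgenic and 8 wildtype T-class cells were left. Cxcr6 and Rgs1 turned to -0.11 and -0.51 there. Bhlhe40 had a computed value of 4.31, but with 8 wildtype UMIs at most the size of that value is not settled.

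On the side of circulating cells 3 of 7 genes were lower and 1 higher (median -0.55). Ccr7, the lymph node homing receptor, gave 1 UMI against 27 in 5 wildtype cells (-4.23, -9.58 to -1.63), S1pr1, the exit receptor, 8 against 28 (-1.28, -2.63 to -0.11) and Lef1, a factor of naive cells, 8 against 29 (-1.33, -2.67 to -0.17). Ifng was at 543 CPM in transgenic and 185 CPM in wildtype T-class cells (1.55, 0.90 to 2.23). Ccr2 gave 34 UMIs in 7 cells against 8 in 4 (2.61, 1.48 to 3.94). The heat shock genes Hspa1a and Hspa1b were higher at 1.46 (0.97 to 1.96) and 1.25 (0.72 to 1.79), and 3 of 10 such genes were higher and 0 lower.

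In midbrain T-class cells (21 transgenic and 46 wildtype) 273 of 2092 genes (13%) were 1.5 times higher and 285 (13.6%) lower. The receptor complex had a median of 0.03, with Cd3e higher (0.41, 0.01 to 0.80) and Trbc1 lower (-0.93, -1.44 to -0.44). Cd8a was at 117 CPM in transgenic and 364 CPM in wildtype cells (-1.63, -2.49 to -0.88) and Cd8b1 at 345 and 554 CPM (-0.68, -1.18 to -0.22), the same cells that the CD8 counts above describe. Of 6 genes of CD4 and regulatory T cells 4 were higher and 0 lower (median 1.73), against 6.04% of 3144 genes higher and 4.39% lower. Ctla4, an inhibitory receptor, gave 27 UMIs in 7 cells against 18 in 13 (1.89, 0.98 to 2.84), and Cd40lg, the CD4 cell ligand of B cells, 18 in 6 against 15 in 6 (1.57, 0.50 to 2.66). Foxp3, the factor of regulatory T cells, was not analysed here. Resident memory genes were higher for 2 of 7 and lower for 0 in these midbrain cells (median 0.55), so their higher side was not confined to frontal cortex.

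Immediate early genes, which cells switch on quickly after a signal, were also counted in T-class cells. In midbrain 11 of 19 were higher in transgenic T-class cells and 0 lower (median 0.48), against 6.04% of 3144 genes higher and 4.39% lower. Junb was at 4723 CPM in transgenic and 2360 CPM in wildtype cells (1.0, 0.85 to 1.15), with UMIs in 21 of 21 and 46 of 46 cells. Jund was at 2222 and 1131 CPM (0.97, 0.75 to 1.2) and Btg2 at 1555 and 862 CPM (0.85, 0.59 to 1.11). In frontal cortex the same list had 3 of 17 genes higher and 4 lower (median -0.02), against 6.33% of 1753 genes higher and 5.08% lower. Junb was there at 2055 and 2595 CPM (-0.34, -0.57 to -0.10). The 2 regions thus had Junb ratios of opposite sign.

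The counts were also taken without CD8 cells. Among T-class cells under 2 CD8 UMIs (17 transgenic and 19 wildtype in midbrain, 8 and 9 in frontal cortex), 6 of 19 immediate early genes were higher and 1 lower in transgenic midbrain (median 0.29), against 8.06% of 1550 genes higher and 7.48% lower. In frontal cortex 1 of 16 was higher and 9 lower (median -0.84), against 10.1% of 670 genes higher and 12.4% lower. The CD4 and regulatory list had 1 of 5 genes higher in midbrain (median 0.70).

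**Figure D4:**
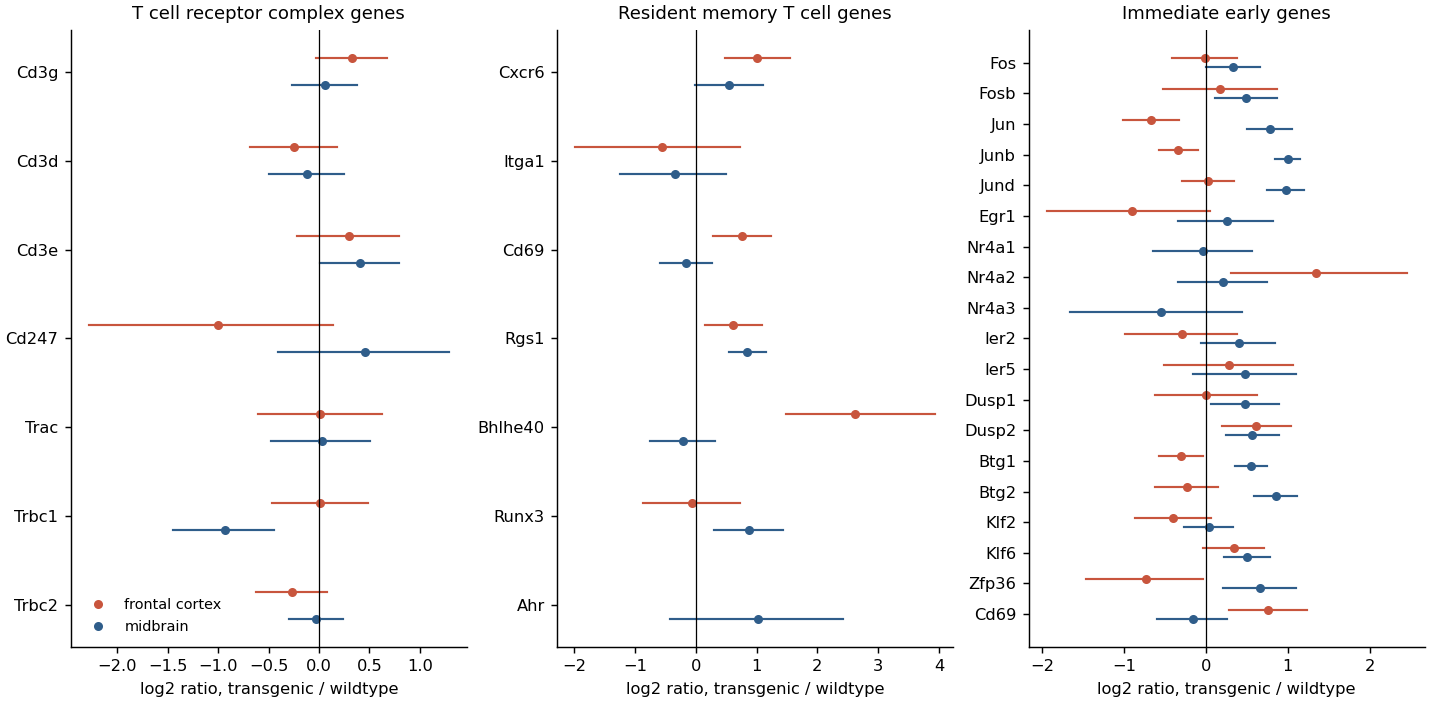
Log2 ratio of transgenic to wildtype level in T-class cells for genes of the receptor complex, resident memory and immediate early lists, with 95% counting intervals, in frontal cortex and in midbrain. Receptor genes, which set the T class, have medians of 0.01 and 0.03, with Trbc1 at -0.93 in midbrain, and immediate early genes lie mostly above 0 in midbrain (median 0.48) and on both sides of 0 in frontal cortex (median -0.02).

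Cytotoxic genes in midbrain T-class cells went both ways, with 2 of 11 higher and 3 lower (median -0.28). Nkg7 was at 543 and 829 CPM (-0.61, -1.0 to -0.24) and Ccl5 at 3256 and 4364 CPM (-0.42, -0.58 to -0.27). These levels include CD8 cells, whose share was lower in the transgenic library. Among midbrain T-class cells under 2 CD8 UMIs 4 of 7 cytotoxic genes were higher and 0 lower (median 1.0). The background there was 8.06% of 1550 genes higher and 7.48% lower. Gzmb, granzyme B, gave 0 UMIs in 21 transgenic cells and 58 in 13 of 46 wildtype cells, at least 7.80-fold lower with a floor of 3 UMIs over the group. Klrc1, an NKG2 receptor, gave 20 UMIs in 4 cells against 10 in 7 (2.31, 1.15 to 3.57). Proliferation genes were lower for 3 of 5 and higher for 0 (median -0.66), and Top2a, which untangles DNA in dividing cells, gave 0 UMIs against 33 in 7 wildtype cells, 20 of them in 1 cell. At least 2 UMIs of Mki67, Top2a and Birc5 were held by 1, 1, 0 and 4 cells of the 4 libraries, so few MNC cells had division genes.

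Prnp, the prion protein gene (chr2:131909928-131938429), had the highest transgenic to wildtype ratio among the genes named in T-class cells in both regions. In frontal cortex it gave 73 UMIs in 13 T-class cells against 3 in 2 (5.13, 3.53 to 7.44), and in midbrain 92 in 12 against 8 in 7 (4.83, 3.79 to 6.09). In midbrain 1 cell held 54 of the 92 UMIs. Over all MNC cells the levels were 559 and 17.0 CPM in frontal cortex and 444 and 30.7 CPM in midbrain. All other cells stood at 774 and 343 CPM in frontal cortex and at 951 and 579 CPM in midbrain.

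The regions were also compared within each genotype. In wildtype mice 629 of 3271 genes (19.2%) were 1.5 times higher in midbrain MNC cells and 507 (15.5%) lower. Lyz2 was at 51.1 CPM in frontal cortex and 2289 in midbrain (5.48, 4.76 to 6.33) with 9 of 9 genes of myeloid granules and lysozyme higher (median 3.00), and Il1b, the interleukin 1 beta gene, gave 1 UMI against 373 in 24 cells (7.32, 4.84 to 12.63). All 10 B cell list genes and all 5 immunoglobulin genes with 20 UMIs were lower in midbrain (medians -3.33 and -4.04), against 7.94% of 5693 genes lower and 11.8% higher. In transgenic mice 402 of 1724 genes (23.3%) were higher in midbrain and 201 (11.7%) lower, led by Tyrobp with 309 UMIs against 2 (6.67, 4.80 to 9.72). Of the myeloid granule and lysozyme genes 8 of 8 were higher there (median 2.72), against 12.9% of 2630 genes higher and 8.17% lower. This list thus stood higher in midbrain in both genotypes, and these comparisons use the same 4 libraries as those between genotypes.

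The regions were compared within T-class cells as well. Between wildtype libraries 354 of 2159 genes (16.4%) were 1.5 times higher in midbrain and 174 (8.06%) lower, and between transgenic ones 176 of 1036 (17%) and 102 (9.85%). NF-kB feedback genes, which NF-kB itself turns on, were higher in midbrain for 4 of 6 in wildtype (median 0.85) and 4 of 5 in transgenic cells (median 1.15), with 0 lower. The list rule called 6.24% of 3267 genes higher and 3.8% lower in wildtype, and 7.9% of 1633 higher and 6.06% lower in transgenic cells. Nfkbia, the inhibitor of NF-kB, was at 247 and 622 CPM in wildtype (1.33, 0.84 to 1.86) and at 267 and 668 CPM in transgenic cells (1.32, 0.71 to 1.97). Immediate early genes were higher for 12 of 19 and lower for 1 in transgenic cells (median 0.74), and for 5 and 1 of 19 in wildtype cells (median 0.13). Among cells under 2 CD8 UMIs they were higher for 15 of 18 and lower for 0 in transgenic cells (median 1.10), against 8.9% of 989 genes higher and 7.08% lower. In such wildtype cells 5 of 19 were higher and 3 lower (median 0.15), against 9.23% of 1181 genes higher and 6.1% lower. Gzmb gave 3 UMIs in wildtype frontal cortex and 58 in wildtype midbrain (3.21, 1.59 to 5.53). Heat shock genes were lower in transgenic midbrain for 4 of 10 and higher for 0 (median -0.43), and in wildtype midbrain lower for 3 of 11 and higher for 0 (median -0.28).

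Among the genes with the highest midbrain to frontal cortex ratio in wildtype T-class cells were Cd63, a tetraspanin of lysosomes, with 34 UMIs in 12 cells against 1 (4.03, 1.45 to 9.37), and Isg15, a ubiquitin-like protein induced by interferon, with 30 in 15 cells against 2 in 1 (2.85, 0.87 to 5.96). Cd63 had a computed value of -0.71 without the cells with microglial or endothelial UMIs. At most 1 frontal cortex UMI was left there, so that value does not settle a direction. Lower in midbrain were Itch, a ubiquitin ligase (12 against 24 UMIs, -2.06, -3.19 to -1.0), and Tox, a transcription factor of T cell development and exhaustion (14 against 23, -1.78, -2.85 to -0.76). In transgenic T-class cells Nr4a1, a nuclear receptor induced by antigen receptor signals, gave 34 UMIs in 12 midbrain cells against 4 in 3 (2.81, 1.32 to 4.76). Ccr2 and Hspa1a were lower there, with 10 against 34 UMIs (-2.04, -3.23 to -0.99) and 37 against 103 (-1.76, -2.34 to -1.2). Ccr2 was thus lower in midbrain than in frontal cortex T-class cells of transgenic mice, while over all midbrain MNC cells it lay mostly in the monocyte class.

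UMIs of marker lists of other brain cells were present in MNC cells and differed between libraries. The endothelial list includes Ly6c1, a gene of the same family as Ly6c2, which T-class cells held. How many of the endothelial list UMIs were the MNC cells' own RNA was not tested. Of the wildtype frontal cortex T-class cells, 8 stayed at the cut of 4 microglial or endothelial UMIs and 20 at the cut of 20. Ttr, the transthyretin of choroid plexus, gave 2 UMIs in each frontal cortex library but 449 in 33 of 33 transgenic and 5002 in 91 of 91 wildtype midbrain cells, 3342 of them in 1 T-class cell. Astrocyte list RNA in T-class cells stood at 1922 CPM in transgenic and 247 CPM in wildtype frontal cortex, and at 462 and 853 CPM in midbrain. Endothelial list RNA in T-class cells stood at 320 and 1736 CPM in frontal cortex and 293 and 796 CPM in midbrain. Single cells weighed on the frontal cortex values. A single T-class cell held 44.0% of the 257 astrocyte list UMIs of transgenic MNC cells, of which 216 were T-class. Another held 44.5% of the 479 endothelial list UMIs of wildtype MNC cells, of which 281 were T-class. Haemoglobin and other erythroid genes stood at 463 and 47.7 CPM in frontal cortex and at 220 and 67.3 CPM in midbrain, higher in both transgenic libraries. Border macrophage genes gave 4, 6, 25 and 90 UMIs, and P2ry12, a microglial receptor, 5, 8, 0 and 22. The part of this RNA in the genotype and region ratios was not tested beyond the leave-out values given beside them.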

How the data were processed

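Single-cell RNA libraries of 4 groups, 1 each, were analysed from 2 region tables. The deposited values are whole UMI counts, with a row for each gene and a column for each cell, made by the authors with Cell Ranger 3.0.0 and Seurat 3.1.5 on mm10, per the submitters' processing notes. The deposited cell tables give cluster, cell type label and the mitochondrial share in percent. Cell filters are not given in the sources used here. MNC cells of a library were taken by label and group, and their UMIs summed and scaled to CPM.

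Log2 ratios have exact 95% Clopper-Pearson intervals, conditional on the sum of both counts, and share differences Newcombe intervals. No test was run, and no p-value is given, since each group was 1 library of pooled mice. PCR copies were removed by UMI, and intervals cover counting error only. Ratios against 0 UMIs use a floor of 3 UMIs over the group.

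The genes named in each comparison have the largest or smallest ratios (10 each way between genotypes, 5 each way in T-class cells and between regions) at 50 CPM and 30 UMIs, with UMIs in at least 10 cells, an interval leaving out 0, and the same direction in the mean of per-cell CPM and without the cell with most UMIs. Mitochondrial, ribosomal, haemoglobin, immunoglobulin variable and predicted genes, Xist, Tsix, genes of the Y chromosome and markers of other cell types were left out, and list members were added. The cells, lists and rules were chosen with earlier results of these data known. The alternatives were edgeR 4.0.16 TMM and DESeq2 1.42.0 size factors, other totals, per-cell means, cell filters and thinning. Calculations used Python 3.11.15 with numpy 2.4.6 and scipy 1.17.1, and were tested on simulated data. Genes of close families (Ly6c2, Klra, Gzm, H2, Iglc and Trbc genes) may share reads that the authors' counting splits, and are uncertain to that degree.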

Additional observations from a re-analysis of the deposited data

Results flagged for a closer look

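In T-class cells 4 genes had genotype ratios of opposite direction in the 2 regions, at 1.5 times or more in both and each with a counting interval that left out 0. The log2 ratio of transgenic to wildtype level was -2.17 in frontal cortex and 1.37 in midbrain for Ccl3, -0.76 and 0.95 for the interleukin 7 receptor gene Il7r, -0.67 and 0.78 for Jun, and -0.74 and 0.66 for Zfp36, which speeds the decay of cytokine mRNA. Among all genes compared in T-class cells, 13.6% of 1096 were 1.5 times higher and 11.9% lower in frontal cortex. In midbrain these shares were 13% and 13.6% of 2092. The number of genes that could be compared in both regions is not given here, so 4 such genes cannot be set against a background. The difference between regions was not tested, since each value compares 1 library with 1 library. The midbrain Ccl3 value rests on 1 cell with 20 of 23 transgenic UMIs and turned to -1.01 without the cell with most UMIs in each library, and the midbrain Zfp36 value was 0.11 without such cells. Without the cells with at least 4 microglial or endothelial UMIs the midbrain Ccl3 value turned to -1.82 and the frontal cortex Zfp36 value to 0.37, so neither gene kept opposite directions there.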

How the results depend on the processing

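No paired analysis was possible because each group was 1 library and the labels carry no replicate numbers. Leaving out cells with at least 4 microglial or endothelial UMIs changed the sign of 13 computed log2 ratios (with their values from all cells where not given above): in all MNC cells of frontal cortex Cited2 (1.76 to -0.39) and Tmem176b (1.89 to -0.45), of midbrain Cald1 (-3.74 to 0.33), Cxcl12 (0.82), Plscr1 (-3.51 to 0.33) and Ramp2 (1.14). In T-class cells it turned Cxcr6 (-0.11), Icos (0.93 to -0.80), Rgs1 (-0.51) and Zfp36 (0.37) in frontal cortex, Ccl3 (-1.82) and Xcl1 (0.79 to -0.12) in midbrain, and Cd63 between wildtype regions (-0.71). Without the cell with most UMIs midbrain Ccl3 turned to -1.01. The 4-UMI cut also set the wildtype T share of frontal cortex at 30.8%, the wildtype monocyte share of midbrain at 13.8% and the transgenic monocyte share of frontal cortex at 0%. The last was 0% too with 4 shared genes out of the monocyte list, which set the midbrain one at 9.89%, and at the added cut of 20 UMIs. Thinning set the frontal cortex wildtype neutrophil share at 0% and the wildtype midbrain CD8 share at 41.3%. Genes called higher and lower were 84 and 167 in frontal cortex at the 4-UMI cut, 379 and 314 between wildtype regions, and 241 and 129 between transgenic ones. With no filter on low values they were 2831 and 2211 in frontal cortex, 3427 and 2210 in midbrain, 2526 and 2875 between wildtype and 2242 and 3085 between transgenic regions. TMM left 153 higher in frontal cortex. Scalings moved the median ratio of all genes by at most 0.143 (between transgenic regions, without mitochondrial and ribosomal protein genes in the total), and no scaling turned a called ratio. The causes were not tested. With 22 to 91 cells per library, a class of few cells can go unseen.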
